A study of Aspergillus nidulans with 6 samples.

Results

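The heat shock and chaperone genes described here are 7 genes of Aspergillus nidulans, a filamentous fungus, in a ChIP-Seq experiment with KaeA-HA. They are AN5129 (hsp70), AN2530 (hsp30), AN7892, AN0858 (hsp104), AN1163 (hsp78), AN8269 (hsp90) and AN6089 (hsp60). The names hsp30 and hsp104 are those of the study, and hsp70, hsp78, hsp90 and hsp60 are also RefSeq symbols. The genes were taken from the study's list of genes located in KaeA-HA peaks, and each was matched by position to the peak that overlaps it on ASM1142v1. Each gene overlapped 1 peak, so the members are 7 of the 468 peaks of the experiment. By its methods, the study kept peaks that differed between IP and input at an FDR-corrected p under 0.05 in edgeR. The hsp78 and hsp60 peaks are in the study's list but did not reach an adjusted p under 0.05 in the fit used here. The study made its list from the same libraries and the same contrast. For this reason the fold changes and calls below describe these libraries and are no independent evidence of enrichment at the listed genes.

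KaeA belongs to KEOPS, a protein complex that modifies tRNA, and the study asked which chromatin regions the protein interacts with. DNA was immunoprecipitated with an anti-HA antibody in 3 libraries (IP), and DNA taken before immunoprecipitation gave 3 more (input), each numbered as biological replicates 1, 2 and 3. Mycelium was grown in minimal medium with nitrate and glucose and crosslinked with 1% formaldehyde for 15 min. All 6 libraries come from a strain whose kaeA was fused to HA with the A.f. pyrG marker, and which also carried pyrG89, argB2 and pabaB22 and had nkuA replaced by argB (nkuAΔ::argB). The labels write the riboB allele as riboB5, riboB6 and riboB7 for IP libraries 1, 2 and 3 and as riboB2, riboB3 and riboB4 for input libraries 1, 2 and 3, whereas the study's methods give riboB2 for its KaeA-HA strain. Libraries from an untagged strain or with a control antibody were not analysed here. Signal due to KaeA, signal due to the tag and signal that any immunoprecipitation gives at these genes therefore cannot be told apart.

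Molecular chaperones bind unfolded or partly folded proteins and help them to fold, keep them soluble or pull them out of aggregates. Hsp70 and Hsp90 work through cycles of ATP binding and hydrolysis, the Hsp60 chaperonin encloses proteins in a barrel, Hsp100 proteins of the AAA family thread proteins out of aggregates, and small heat shock proteins hold unfolding proteins without ATP. In fungi, as in other eukaryotes, many of these genes are transcribed strongly, and heat and other stresses raise the transcription of most of them.

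Counts per peak were summed over the 468 peaks to give a depth from 252925 to 377238 in the IP libraries and from 162458 to 278412 in the input libraries. The smallest count of any peak in any library was 59. The 7 peaks took between 5.34% and 5.89% of these counts in the IP libraries and between 3.43% and 3.57% in the input libraries. Values below are normalized read counts, that is, counts scaled with TMM factors to the mean effective library size of 261861. All features in this scaling are peaks, which were called because IP exceeded input. A log2 fold change of 0 therefore means the IP to input ratio of a typical peak, not the absence of enrichment. A peak was called when its adjusted p in edgeR's quasi-likelihood test, adjusted over all 468 peaks by the Benjamini-Hochberg method, was under 0.05.

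The peaks at the 7 genes were long and lay over the genes themselves. Their median length was 2036 bp, against 397 bp over all 468 peaks. Long peaks were not particular to these genes, as 127 of all peaks were at least 800 bp long. The peaks at AN7170, AN2436 and AN8009, named below for their similar profile, had lengths of 1854, 2420 and 1654 bp. The 7 were taken from the study's list, and the geometry of the other listed peaks was not compared here. In 6 of the 7, the peak covered at least 80% of the gene, whereas 61 of the 361 other peaks that overlap a gene (16.9%) did so, and these 361 covered a median of 21.7% of their gene. The summit, the position of the highest pileup, lay inside the gene at all 7, as it did in 340 of the 361 other peaks (94.2%). The deposited annotation placed 5 of the 7 in the class 5′ UTR, which it gave to 51 of the 468 peaks, AN1163 in the class exon and AN6089 in the class 3′ UTR. The study reports the 5′ UTR for most of its listed regions within genes, so this class is not particular to the chaperone genes. The location classes name 1 feature per peak, although the peaks extend over most of each gene. Gene strand was not used here, so distances run from the end of the gene with the lower coordinate.

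**Figure D1:**
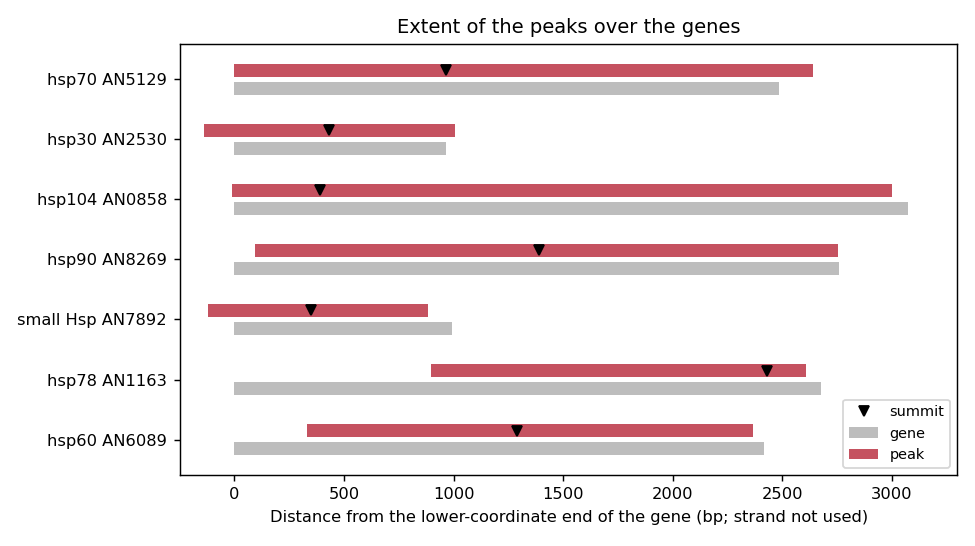
Extent of each peak (upper bar) over its gene (lower bar), with the summit as a triangle, on an axis of distance in bp from the lower-coordinate end of the gene. The hsp70 and hsp30 peaks cover 100% of their genes, while the hsp78 peak covers 64.1% and has its summit 2432 bp from that end.

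Of the 7 peaks, 5 were called and all 5 were higher in IP, where 16.2% of all 468 peaks were called in either direction and 11.1% were called higher. When only the 60 peaks that MACS2 put at 2-fold enrichment or more were fitted, 3 of the 6 members among them were called higher, hsp60 was called lower, and AN7892 and hsp90 were not called. In all 7, the lowest IP library exceeded the highest input library, which was so in 16.5% of all peaks. The median log2 fold change of the 7 was 0.59, against −0.02 over all peaks, of which 121 had an unadjusted p under 0.05. Over the 127 peaks of at least 800 bp, the median log2 fold change was 0.13. These counts are read no further, because the study's list was drawn from the same contrast. MACS2's own fold enrichment, which compares the pooled IP signal at the summit with the local input background, had a median of 2.67 at the 7 peaks and of 1.53 at all peaks (6.18 at the highest).

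The hsp70 peak had the highest log2 fold change of the group, followed by hsp30 at 1.13 (SE 0.09). By IP level per kb of peak, hsp70, hsp30 and AN7892 lay within their SDs of each other. AN5129 encodes an Hsp70 protein, the ATP-driven chaperone that binds short stretches of unfolded chains. The peak lies on chromosome V from 1027302 to 1029944 (2643 bp) and covers the whole gene (1027304 to 1029788), with the summit 964 bp from the gene's lower-coordinate end. The file of protein domains predicted from the peak sequences gives an Hsp70 domain at residues 19 to 622 of a translated stretch of 659 residues. The normalized counts were 3946, 3655 and 3442 in IP libraries 1, 2 and 3, against 1475, 1560 and 1552 in input libraries 1, 2 and 3. The IP and input libraries were far apart, and library 1 was the highest of the IP group and the lowest of the input group. The means were 3681 ± 253 in IP and 1529 ± 47.1 in input (SD, n = 3 libraries each). The log2 fold change was 1.27 (SE 0.08), or 2.41-fold, with an adjusted p of 1.61e-09 in edgeR's quasi-likelihood test, and it ranked 2 of 468. MACS2 gave a fold enrichment of 4.65, rank 3 of 468. The 15 peaks whose length was within 20% of that of hsp70 had a median log2 fold change of 0.21.

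The 2 small heat shock genes differed from each other. AN2530 (hsp30) and AN7892 encode proteins of the Hsp20/alpha crystallin family, whose domain was found at residues 154 to 225 of a stretch of 225 residues in the hsp30 peak and at residues 120 to 193 of 193 in the AN7892 peak. The hsp30 peak lies on chromosome VII from 4186402 to 4187550 (1149 bp) and covers the whole gene (4186543 to 4187508). It had 1826, 1635 and 1444 normalized counts in IP libraries 1, 2 and 3, against 768, 725 and 750 in input libraries 1, 2 and 3. Every IP library was at or above 1444, while the input libraries lay within a narrow band. The means were 1635 ± 191 in IP and 748 ± 21.6 in input (SD, n = 3 each). For hsp30, IP exceeded input by a log2 fold change of 1.13 (SE 0.09), or 2.19-fold, with an adjusted p of 2.66e-08 in edgeR's quasi-likelihood test and rank 3 of 468. MACS2 gave 4.01-fold enrichment, rank 5. The 46 peaks of similar length had a median log2 fold change of 0.10.

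The AN7892 peak lies on chromosome II from 157601 to 158605 (1005 bp) and covers 89.0% of the gene (157721 to 158714). It had 1437, 1731 and 1254 normalized counts in IP libraries 1, 2 and 3, against 1067, 1082 and 1130 in input libraries 1, 2 and 3. The groups did not overlap, and the IP libraries spread more than the input libraries, with IP library 2 the highest. The means were 1474 ± 241 in IP and 1093 ± 32.9 in input (SD, n = 3 each). This gave a log2 fold change of 0.43 (SE 0.10), or 1.35-fold, with an adjusted p of 0.00417 in edgeR's quasi-likelihood test. It fell to 0.30 without IP replicate 2, and the adjusted p under the 6 fits that each left out 1 library was at most 0.0333. In the smaller set of 60 peaks that MACS2 put at 2-fold enrichment or more, scaled on their own, the log2 fold change of AN7892 was −0.03 (adjusted p = 0.766 by the same test).

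The level of AN7892 was also high in input. Per kb of peak, it had 1467 ± 240 normalized counts in IP and 1088 ± 32.7 in input (SD, n = 3 each). The input level was 1.86 times the median of 583 per kb for the 43 peaks of similar length, and ranked 4 of the 127 peaks of at least 800 bp. At the other 6 genes, the input level per kb was between 0.974 and 1.16 times the median of peaks of similar length. The hsp30 peak, by comparison, had 1423 ± 166 normalized counts per kb in IP and 651 ± 18.8 per kb in input. The IP levels per kb of the small heat shock genes lay within their SDs of each other, and AN7892 had the higher input level. The part of the input level in the fold change was not tested.

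**Figure D2:**
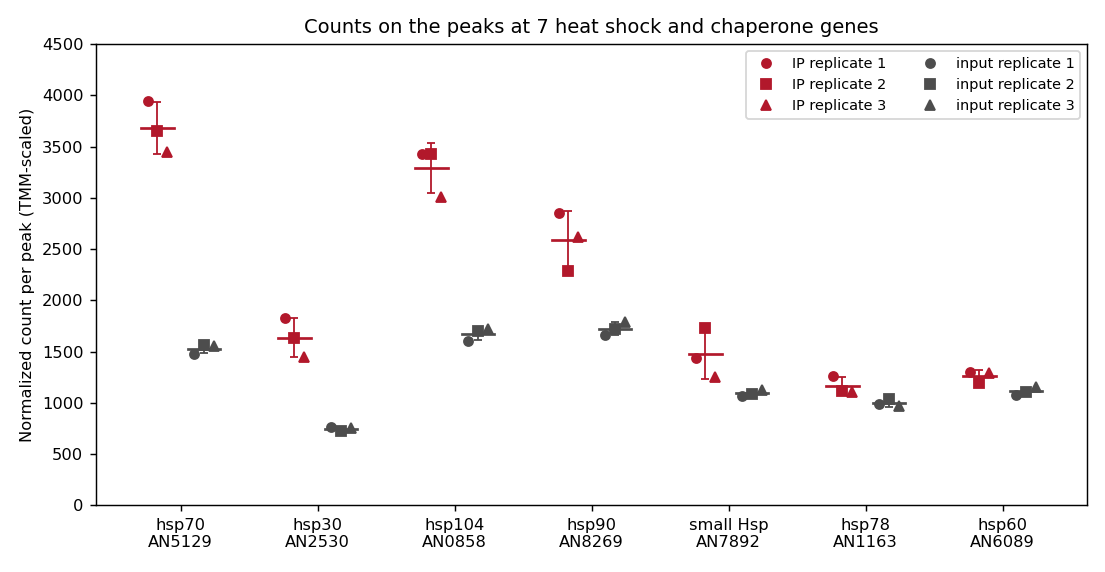
Normalized counts per peak in each of the 3 IP libraries (red, left) and the 3 input libraries (grey, right) for the 7 genes, with the group mean as a horizontal line and the SD as a bar. The groups are far apart at hsp70 (3442 to 3946 in IP, 1475 to 1560 in input) and close at hsp60 (1193 to 1305 in IP, 1078 to 1152 in input).

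The Hsp100 genes also differed. AN0858 (hsp104) corresponds in name to the yeast disaggregase Hsp104, which pulls proteins out of aggregates, and AN1163 carries the symbol of yeast Hsp78, the mitochondrial protein of the same family. The hsp104 peak lies on chromosome VIII from 2199245 to 2202258 (3014 bp) and covers 97.6% of the gene (2199256 to 2202331), with the summit 390 bp from the lower-coordinate end. Its translated stretch held 2 AAA domains, an amino-terminal Clp domain and the C-terminal domain of ClpB at residues 819 to 901. It had 3429, 3431 and 3006 normalized counts in IP libraries 1, 2 and 3, against 1604, 1698 and 1719 in input libraries 1, 2 and 3. All IP libraries were far above all input libraries, with library 3 the lowest of the IP group. The means were 3289 ± 245 in IP and 1673 ± 61.3 in input (SD, n = 3 each). Its log2 fold change was 0.98 (SE 0.08), or 1.97-fold, with an adjusted p of 4.59e-08 in edgeR's quasi-likelihood test, rank 6 of 468. The 11 peaks of similar length had a median log2 fold change of 0.42.

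The hsp78 peak lies on chromosome VIII from 1281222 to 1282935 (1714 bp) inside the gene (1280327 to 1283002), of which it covers 64.1%. Only AAA domains were listed for it. It had 1264, 1118 and 1107 normalized counts in IP libraries 1, 2 and 3, against 989, 1033 and 966 in input libraries 1, 2 and 3. The groups did not overlap, but the lowest IP library was close to the highest input library. The means were 1163 ± 87.5 in IP and 996 ± 34.0 in input (SD, n = 3 each). This difference, a log2 fold change of 0.22 (SE 0.08), had an adjusted p of 0.0741 in edgeR's quasi-likelihood test, so the peak was not called. It was called without IP replicate 2, at a log2 fold change of 0.25 and an adjusted p of 0.00413. The 38 peaks of similar length had a median log2 fold change of 0.17, near the value of hsp78.

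The hsp90 peak was intermediate. AN8269 encodes Hsp90, the chaperone that acts late in the folding of kinases and other signalling proteins. The peak lies on chromosome II from 1330979 to 1333638 (2660 bp) and covers 96.4% of the gene (1330885 to 1333643), with the summit near its middle, 1388 bp from the lower-coordinate end. An Hsp90 domain was found at residues 96 to 602 of a stretch of 613 residues. The normalized counts were 2856, 2287 and 2619 in IP libraries 1, 2 and 3, against 1661, 1722 and 1792 in input libraries 1, 2 and 3. The groups did not overlap, and IP library 2 was the lowest of its group. The means were 2587 ± 286 in IP and 1725 ± 65.6 in input (SD, n = 3 each). The log2 fold change was 0.59 (SE 0.09), with an adjusted p of 6.64e-05 in edgeR's quasi-likelihood test. The 14 peaks of similar length had a median of 0.25. In the set of 60 peaks with MACS2 enrichment of 2-fold or more, the call was lost (log2 fold change 0.12, adjusted p = 0.129 by the same test).

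The hsp60 peak had the smallest fold change of the 7. AN6089 encodes the Hsp60 chaperonin, which in yeast folds proteins inside mitochondria. The peak lies on chromosome I from 1293773 to 1295808 (2036 bp) and covers 84.2% of the gene (1293443 to 1295861), and a TCP-1/cpn60 domain was found at residues 39 to 512 of a stretch of 545 residues. It had 1305, 1193 and 1293 normalized counts in IP libraries 1, 2 and 3, against 1078, 1108 and 1152 in input libraries 1, 2 and 3. The lowest IP library lay just above the highest input library. The means were 1264 ± 61.5 in IP and 1113 ± 36.9 in input (SD, n = 3 each). At hsp60 the log2 fold change was 0.19 (SE 0.08), with an adjusted p of 0.133 in edgeR's quasi-likelihood test, so the peak was not called. It was called without IP replicate 2, at a log2 fold change of 0.22 and an adjusted p of 0.00880. The 32 peaks of similar length had a median log2 fold change of 0.19, the same as hsp60. In the set of 60 peaks with MACS2 enrichment of 2-fold or more, hsp60 was called lower (log2 fold change −0.28, adjusted p = 0.00154 by the same test).

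Per kb of peak, the 7 genes were ordered by their IP level. AN7892, hsp30 and hsp70 had 1467 ± 240, 1423 ± 166 and 1393 ± 95.7 normalized counts per kb in IP, and these neighbours did not differ beyond their SDs. Then came hsp104 at 1091 ± 81.3 and hsp90 at 973 ± 107 per kb, whose SDs also overlapped, and last hsp78 at 678 ± 51.1 and hsp60 at 621 ± 30.2 (SD, n = 3 IP libraries each). In input, apart from AN7892, the levels of all of them lay between 547 and 651 normalized counts per kb. The median over the 127 peaks of at least 800 bp was 621 per kb in IP and 567 per kb in input. The IP level of hsp60 per kb was thus that of a typical long peak, and that of hsp70 was 2.24 times it.

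The classes were compared within each library, by the log2 ratio of the counts of 2 classes, so that no scaling between libraries enters. A class with 2 genes entered as the mean of their log2 counts, and the Hsp70, Hsp90 and Hsp60 classes were a single gene each. With 3 IP against 3 input libraries, the two-sided exact permutation test cannot give a p under 0.10, and Benjamini-Hochberg adjustment over the 12 comparisons gives 0.12 at best, so none could pass 0.05. In 10 of the 12 comparisons the IP and input ratios did not overlap. All of these comparisons reuse the same 7 peaks, and the share among ratios of other peaks was not computed. The count is therefore read no further. The contrast between Hsp70 and Hsp60 was the widest. The log2 ratio of hsp70 to hsp60 counts was 1.60, 1.62 and 1.41 in IP libraries 1, 2 and 3, against 0.45, 0.49 and 0.43 in input libraries 1, 2 and 3. The difference was 1.08 (exact permutation p = 0.1, adjusted p = 0.12), with every IP ratio above every input ratio.

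The Hsp70 class, which is AN5129 alone, also stood above the means of the other classes. Gene by gene the gaps were smaller for hsp30 and hsp104. Their log2 fold changes were 1.13 (SE 0.09) and 0.98 (SE 0.08), against 1.27 (SE 0.08) for hsp70. The means of the small Hsp and Hsp100 classes also hold AN7892 (0.43) and hsp78 (0.22). The ratios of hsp70 to hsp30 and to hsp104 alone were not computed. The other peaks with an Hsp70 domain, AN1047 and AN6010, had log2 fold changes of 0.26 and 0.05. The log2 ratio of AN5129 to AN6010 was higher by 1.23 in IP than in input, which exceeds every difference between classes and was not tested. For AN5129, the log2 ratio to Hsp90 was 0.51 ± 0.15 in IP and −0.17 ± 0.03 in input, a difference of 0.69. Its log2 ratio to Hsp100 was 0.91 ± 0.01 in IP and 0.24 ± 0.02 in input, a difference of 0.67. Its log2 ratio to the small Hsp class was 1.25 ± 0.12 in IP and 0.76 ± 0.06 in input (SD, n = 3 libraries each; exact permutation p = 0.1 and adjusted p = 0.12 for each of these differences), a difference of 0.50. None of these IP ranges overlapped the input range. The differences of the small Hsp, Hsp100 and Hsp90 classes from Hsp60 were 0.59, 0.41 and 0.40, again without overlap.

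**Figure D3:**
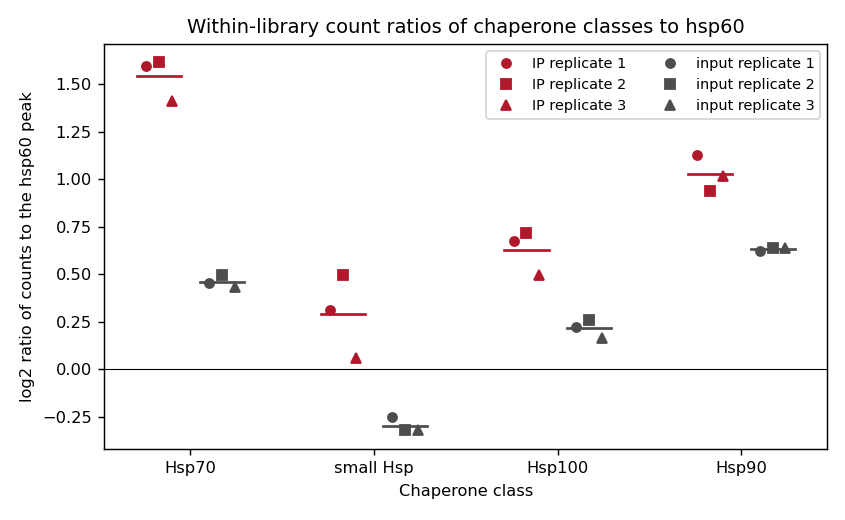
Within-library log2 ratio of the counts of 4 chaperone classes to the hsp60 peak, for the 3 IP libraries (red, left) and the 3 input libraries (grey, right), with the mean as a line. For Hsp70 the ratio is 1.54 ± 0.11 in IP and 0.46 ± 0.03 in input, and in every class the IP points lie above the input points.

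The small Hsp, Hsp100 and Hsp90 classes were less clearly ordered. Between Hsp100 and Hsp90 the difference of the log2 ratio was 0.02 and the libraries overlapped (exact permutation p = 0.9, adjusted p = 0.9). It was −0.07 without IP replicate 2 and 0.08 at the other end of the 6 repeats that each left out 1 library, so its direction was not settled. Between small Hsp and Hsp90 the difference was 0.19, also with overlap (exact permutation p = 0.3, adjusted p = 0.327), and it was 0.04 without IP replicate 2 and 0.30 without IP replicate 3. Between small Hsp and Hsp100 it was 0.17 without overlap (exact permutation p = 0.1, adjusted p = 0.12), but 0.11 without IP replicate 2. When the counts of a class were summed before the log was taken, that difference was 0.01 (exact permutation p = 1.0) and that between Hsp100 and Hsp90 was 0.16 (exact permutation p = 0.2). A class mean joins unlike genes here. The log2 ratio of hsp30 to AN7892 was 0.35, −0.08 and 0.20 in IP libraries 1, 2 and 3, against −0.47, −0.58 and −0.59 in input libraries 1, 2 and 3, a difference of 0.70. The log2 ratio of hsp104 to hsp78 was 1.44, 1.62 and 1.44 in IP libraries 1, 2 and 3, against 0.70, 0.72 and 0.83 in input libraries 1, 2 and 3, a difference of 0.75. Both within-class differences were without overlap between IP and input (exact permutation p = 0.1, adjusted p = 0.12).

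A further 9 peaks were found at other chaperone genes, from the study's list or by a keyword in the domain descriptions. Of these, 2 were called, both higher in IP, and both encode proteins of the Hsp20 family, where 16.2% of all 468 peaks were called and 11.1% were called higher. The median log2 fold change of the 9 was 0.05 (range −0.06 to 1.06), against −0.02 over all peaks. AN5781 and AN3555 are also in the study's list, so that their values too are a description.

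AN5781 stood with hsp30. It had 1836, 1808 and 1592 normalized counts in IP libraries 1, 2 and 3, against 813, 833 and 870 in input libraries 1, 2 and 3. Here too every IP library was far above every input library. Its log2 fold change was 1.06 (SE 0.08), with an adjusted p of 2.43e-08 in edgeR's quasi-likelihood test, rank 4 of 468. AN3555 had 585, 563 and 536 normalized counts in IP libraries 1, 2 and 3, against 437, 460 and 441 in input libraries 1, 2 and 3. Its groups did not overlap either. Its log2 fold change was 0.33 (SE 0.09), with an adjusted p of 0.0145 by the same test, which was lost without IP replicate 1 (0.0617), without input replicate 1 (0.0921), without input replicate 3 (0.0630) and with library size alone (0.0911). The 4 peaks with an Hsp20 domain in the whole peak list are thus hsp30, AN5781, AN7892 and AN3555. All 4 are in the study's list, and all 4 were called higher in IP, as were 11.1% of all peaks, so that nothing about the family is read from this count. They had log2 fold changes of 1.13, 1.06, 0.43 and 0.33, with AN7892 at −0.03 when the 60 peaks of 2-fold MACS2 enrichment or more were scaled alone.

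The peaks with an Hsp70 domain did not share the value of hsp70. AN1047 (hsp88) had a log2 fold change of 0.26 (adjusted p = 0.0586 in edgeR's quasi-likelihood test) and was called without IP replicate 2 (0.33, adjusted p = 0.000212). AN6010 had 0.05 (adjusted p = 0.841 by the same test), with 936 ± 132 normalized counts in IP and 907 ± 63.1 in input (SD, n = 3 each). The remaining peaks belong to helpers of Hsp70 and Hsp90 and to a folding enzyme. They are AN4192, with the DnaJ domain through which co-chaperones stimulate Hsp70, AN2731 and AN2238, for which the file lists other parts of DnaJ proteins (the C terminal domain in both, and the central domain in AN2731), AN5602 with an Aha1 domain, which in yeast stimulates Hsp90, and AN4583, a cyclophilin. None of these 5 was called, and their log2 fold changes were between −0.06 and 0.11. Peaks at the co-chaperone genes fes1 (1), wos2 (1) and sti1 (2) were added after the values were seen, and 0 of 4 were called in edgeR's quasi-likelihood test, with log2 fold changes from −0.11 to 0.11.

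**Figure D4:**
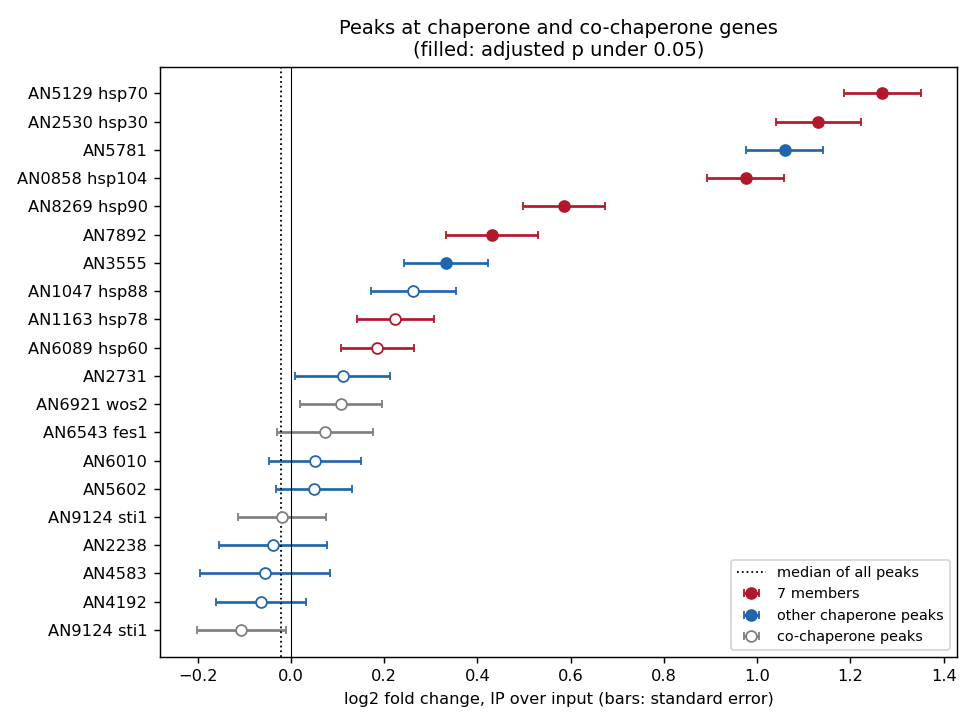
Log2 fold change of IP over input with its standard error for the 7 genes (red), the 9 other chaperone peaks (blue) and 4 co-chaperone peaks (grey), ordered by value, with called peaks filled and the median of all 468 peaks dotted. The values run from 1.27 at hsp70 to −0.11 at a sti1 peak, and the 7 called peaks are 5 of the 7 genes together with AN5781 and AN3555.

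One further peak lay within 5 kb of a member. It overlaps AN5130 (hem13, in yeast the gene of an enzyme of haem synthesis) on chromosome V from 1030929 to 1032451, 984 bp beyond the end of the hsp70 peak. It had 1327, 1201 and 1174 normalized counts in IP libraries 1, 2 and 3, against 897, 922 and 788 in input libraries 1, 2 and 3. The groups did not overlap. The log2 fold change was 0.50 (SE 0.09), with an adjusted p of 0.000259 in edgeR's quasi-likelihood test, and the call was lost in the set of 60 peaks with MACS2 enrichment of 2-fold or more (0.03, adjusted p = 0.753). The log2 ratio of hsp70 to hem13 counts was higher by 0.76 in IP than in input, a comparison added after the values were seen and not tested.

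The 3 peaks outside the chaperone list whose log2 CPM values over the 6 libraries were most like the mean profile of the 7 genes were AN7170, AN2436 and AN8009 (Pearson's r of 0.99 each, among 452 peaks compared, as a description of 6 libraries that fall into 2 groups). The peak at AN7170 holds a helix-loop-helix DNA-binding domain and had the highest log2 fold change of all peaks, 1.43. AN2436 had 0.45 and AN8009, which holds an NMT1/THI5-like domain, had 0.15 and was not called. Pearson's r takes no account of the size of the change.

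The scaling between libraries set the level of all fold changes. With library size alone the median of all 468 peaks was −0.13 instead of −0.02, and with TMM factors from the peaks at or under the median MACS2 fold enrichment it was 0.10. The split of calls moved with it, to 38 higher of 98 called with library size alone and 84 higher of 91 called with the low-enrichment peaks, against 52 higher of 76. The 7 genes moved by about the same amount as the median and kept their order. Under the low-enrichment scaling all 7 were called higher in edgeR's quasi-likelihood test, with hsp78 at 0.34 (adjusted p = 0.00733) and hsp60 at 0.31 (adjusted p = 0.0147). In the set of 60 peaks with MACS2 enrichment of 2-fold or more, hsp70 (0.80), hsp30 (0.66) and hsp104 (0.51) were still called higher.

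**Figure D5:**
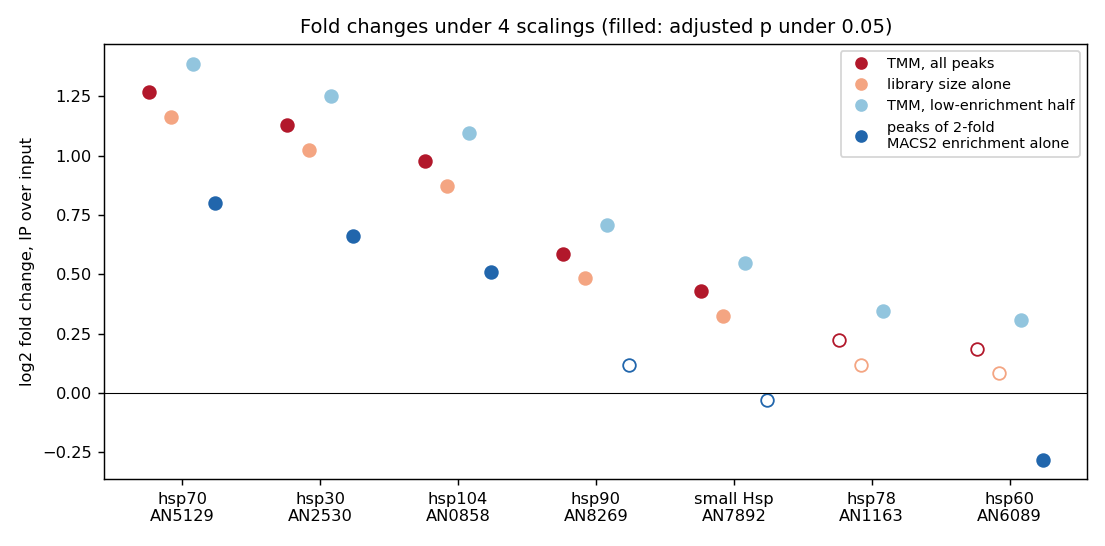
Log2 fold change of IP over input of the 7 genes under 4 scalings (TMM over all peaks, library size alone, TMM from the peaks of low MACS2 enrichment, and the 60 peaks with MACS2 enrichment of 2-fold or more), with filled points for an adjusted p under 0.05. The points of hsp70, hsp30 and hsp104 are filled and above 0 in all 4, whereas hsp60 is at 0.31 under the third and at −0.28 under the last. The hsp78 peak has no value there because its enrichment is 1.86-fold.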

How the data were processed

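The deposited files of 6 KaeA-HA ChIP-Seq libraries (3 IP, 3 input) were used. Reads were trimmed by the authors (Trimmomatic), mapped to ASM1142v1 (BWA) and freed of optical duplicates (Picard), and MACS2 was run once, on IP reads merged over replicates against merged input reads. The deposited counts are read counts per peak and library, without normalization by the authors. The counting mode is not given in the sources used here. The deposited peak list gives the pileup signal at the summit, the fold enrichment as a ratio over local input, and the −log10 of the q-value. Further deposited tables give the location class, the distance to a start site and Pfam matches with their E-values. The authors' edgeR table (log2 fold change of input against IP, likelihood ratio, p-value and FDR) was not used. All 6 count columns were used.

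Counts were fitted in edgeR 4.0.16 (R 4.3.3, limma 3.58.1) with TMM factors and the quasi-likelihood test over all 468 peaks, with no block, an adjusted p threshold of 0.05, and no filter. Standard errors were taken from the log2 fold change and the F statistic. The script was tested on simulated data. A peak was assigned to a RefSeq gene when they shared 1 bp or more. The depth is the count on peaks only. The edgeR p-values rest on the spread among 3 libraries per group, with each peak's estimate of that spread drawn toward the trend over all 468 peaks. No pair of libraries was a copy (chi-square per degree of freedom at least 1.96).

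Named genes are the 7 members, the other chaperone peaks that were called or are in the study's list, peaks within 5 kb of a member, and the 3 peaks with the most similar profile. AN1047 and AN6010 and the co-chaperones were named after their values were seen. The members and lists were chosen with earlier results of these data known. Alternatives were library size alone, RLE factors, other TMM sets, a likelihood ratio test, DESeq2 1.42.0, count minimums, the replicate block, and leaving out each library. A planned search for motifs in promoters was not run and is not analysed here.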

Additional observations from a re-analysis of the deposited data

How the results depend on the processing

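Across 17 alternatives, the number of the 7 genes that were called was between 5 and 7 when each library was left out in turn (7 without IP replicate 2), was 2 when at least 2-fold was also required, and was 4 of 6 tested (3 higher) in the set with MACS2 enrichment of 2-fold or more. Over all 468 peaks, 76 were called, against 22 of 60 in the same set, 5 with a fold threshold of 2, and 47 to 132 when each library was left out (47 without IP replicate 1, 132 without IP replicate 2, 49 without input replicate 1). Of the 9 other chaperone peaks, 2 were called, against 1 with library size alone, 1 of the 1 tested in the same set, 1 with the fold threshold, 3 with TMM factors from low-enrichment peaks and with the replicate block, and 1 to 4 when each library was left out. Their median log2 fold change was 0.05, but −0.052 with library size alone and −0.016 without IP replicate 1, and that of all peaks was −0.02, but 0.10 with the low-enrichment factors. Among the fold changes of the 7 genes and the class differences, those that changed direction were AN7892 (−0.032) and hsp60 (−0.281) in the set of 60 peaks, and the class difference of Hsp100 minus Hsp90 (−0.071 to 0.078 when each library was left out, and −0.011 without input replicate 3). In that set the 60 peaks were scaled among themselves. The cause of the other changes was not tested.

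The labels number the IP and the input libraries alike as biological replicates 1, 2 and 3. The deviations of same-numbered libraries from their group means correlated at −0.11, −0.05 and 0.03. With 3 libraries per group these correlations cannot exclude a pairing. With a replicate block, 83 of 468 peaks and 5 of the 7 genes were called, and AN1047 was called (adjusted p = 0.0429 in edgeR's quasi-likelihood test). DESeq2 called 74 peaks. Without IP replicate 2, hsp78 and hsp60 passed the threshold. Relative to the mean of IP libraries 1 and 3, that library was higher by 0.36 at AN7892 and differed by −0.26 at hsp90 on the log2 scale, where 5% to 95% of all peaks lay between −0.34 and 0.40. Depth was counted on peaks only, so the share of reads outside peaks was not used here.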

Other observations

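The 3 peaks with an Hsp70 domain (AN5129, AN6010 and AN1047) were also the 3 peaks of the list with a match to the family named NAD-specific glutamate dehydrogenase. In AN5129 this match lay at residues 99 to 664 of a translated stretch of 668 residues with an E-value of 5e-153, while the Hsp70 domain lay in another stretch of 659 residues with an E-value of 1.6e-259. A count of peaks by this family name in the domain file therefore includes these Hsp70 genes.

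The deposited annotation gives, as the distance to the nearest start site, between 30210 and 113221 bp for the 7 peaks, although each overlaps its gene. Over all peaks, 399 of 468 have such a distance of more than 10 kb.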
